A study of Mus musculus with 6 samples.

Results

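The genes described here encode the nuclear pore complex and the core machinery that moves cargo through it. The list was chosen with earlier results of these data known. It holds 32 nucleoporins and Ran transport factors, picked by name with no cutoff on measured values. Of these, 30 had a probe set annotated to that symbol alone and are described below, among 18193 named genes measured in all. Nup35, an inner ring nucleoporin, and Tpr, the large coiled-coil protein of the nuclear basket, were not analysed here. The nuclear pore is a channel through both nuclear membranes, built of stacked protein rings that hold a mesh of nucleoporins rich in phenylalanine-glycine (FG) repeats. Import receptors such as importin beta and export receptors such as exportin 1 cross this mesh with their cargo, and the small GTPase Ran, bound to GTP in the nucleus and to GDP outside it, tells them where to load and unload. The pore sits in the nuclear lamina, the filament layer made of lamins, and lamins bind several of its nuclear-side proteins.

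The cells were primary mouse fibroblasts of the mixed strain C57bl6X129S3/J, taken at passage 3 and kept for 72 hours without serum, which slows division. The 3 Delta9 samples carry the Delta9 allele of Lmna, the lamin A/C gene, an allele studied as a mouse model of progeria, and the 3 wild-type (WT) samples are of lines derived from siblings. The replicates are described as independent, but the zygosity of the allele and the number of animals are not given, so a p-value here weighs a difference against the spread of these 6 samples only. The cells are adult by the sample labels but post-natal by the study's own design description. RNA was hybridised to 1 Affymetrix array per sample, and values are log2 probe set signals, on which a difference of 1 is a 2-fold change.

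Lmna, the altered gene, read 7.07, 6.95 and 6.11 on the 3 Delta9 arrays and 8.35, 8.89 and 8.78 on the WT arrays (limma difference -1.96, SE 0.28, adjusted p 0.0899). The groups did not overlap; whether this probe set covers the altered stretch of Lmna is not known here, so its level is no check of the labels. All 10 fibroblast markers read above the arrays' median in both groups, and so did all 13 macrophage markers. All 10 fibroblast markers had a lower mean in Delta9 (median difference -0.25, 0 past the adjusted threshold and 2 at an unadjusted limma p under 0.05) and all 13 macrophage markers a higher one (median 1.09, 0 and 3). The part of these shifts in the results below was not tested. The mean macrophage signal of an array ran from 10.1 to 10.7 in Delta9, and 2 of 3 WT arrays were below that range. Of 6 epithelial markers, 4 in Delta9 and 3 in WT read below the arrays' median. But 0 of 6 endothelial markers did so in either group, and of 5 skeletal muscle markers 1 did so in Delta9 and 0 in WT. A reading above this median therefore does not by itself tell which cell types were present. The poly-A spike-ins, control transcripts added to the RNA before labelling, averaged 5.20 on Delta9 replicate 3 and 4.85 on WT replicate 1 against 5.64 to 6.10 on the other 4 arrays. These 2 arrays are called the lower poly-A arrays below. With bulk RNA, fewer cells of a type and less RNA per cell cannot be told apart.

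No nuclear pore or Ran gene differed between Delta9 and WT past the adjusted p of 0.05 in limma (0 of 30, with 2 at an unadjusted p under 0.05). The lowest adjusted p was 0.271, that of Nup210. Over all genes 0.0605% passed the adjusted threshold (0.0055% higher and 0.055% lower in Delta9) and 10.6% an unadjusted p of 0.05. Both of the 2 genes, Nup62 and Nup210, had a higher mean in Delta9 (6.67%; all genes 4.54% in that direction), and the count was 6 without Delta9 replicate 3 (13.7% of all genes in that fit) and 1 without any other single array (7.69% to 11.2% of all genes). Differences were small: 20 genes had a higher and 10 a lower mean in Delta9, from -0.25 for Nup98 to 0.79 for Nup210, with a median of 0.07, against a median of -0.01 over all genes. The median changed sign with single arrays left out, to -0.02 without Delta9 replicate 1, -0.02 without Delta9 replicate 2 and -0.03 without WT replicate 1, and was 0.23 without Delta9 replicate 3. In the same fits and order, the medians over all genes were -0.03, -0.02, -0.04 and 0.0007. For 28 of the 30 genes (93.3%; 88.4% of all genes) the 95% interval of the difference lay between -1 and 1. Such an interval excludes a 2-fold change in either direction. The exceptions were Nup210, with 0.32 to 1.27, and Ndc1, with -0.38 to 1.40.

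**Figure D1:**
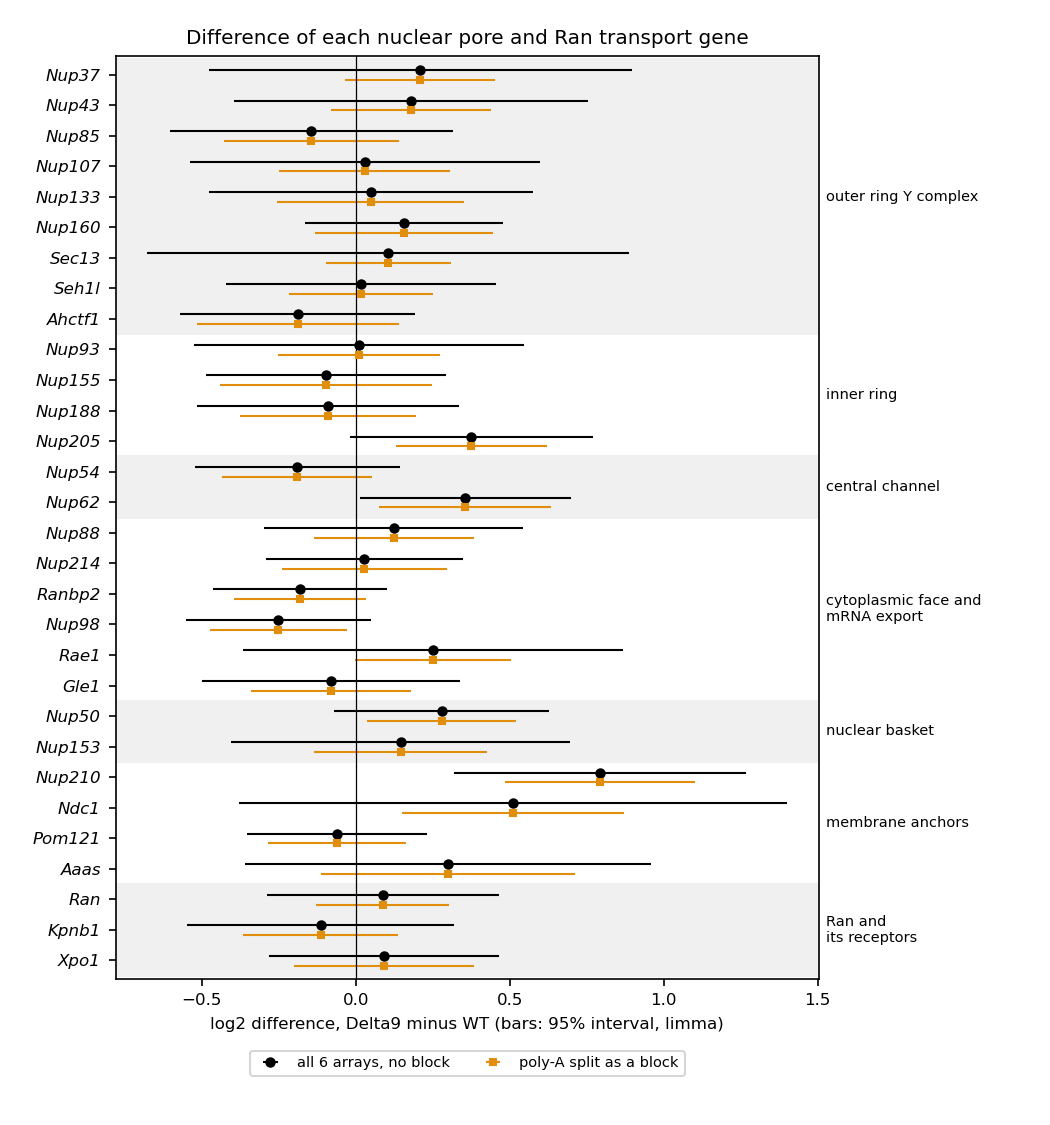
Difference between Delta9 and WT for each of the 30 genes, in log2 units on the x axis, grouped by position in the pore; points are limma estimates and bars their 95% intervals, from all 6 arrays without a block (black) and with the poly-A split as a block (orange). Without the block, the intervals of Nup62 and Nup210 lie above 0 and the others include it; the block leaves the estimates where they are and shortens the bars.

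In 6 of the 30 genes the 3 Delta9 values did not overlap the 3 WT values, where 17.3% of all genes parted in this way. In 4 of them Delta9 was higher (all genes 7.27%): Nup62, Nup205, Nup50 and Nup210. In 2 it was lower (all genes 9.99%): Nup98 and Ranbp2. Groups of 2 and 3 arrays part more often. Without Delta9 replicate 3 the count was 18 (60%), where 34.6% of all genes parted. Without any other single array it was 6 to 9, where 24.5% to 30.5% of all genes parted. With a gene's probe sets averaged and all 6 arrays kept, the count was 3, against 17% of all genes. These 6 come from 5 different parts of the pore. They are taken up below with their neighbours, from the membrane inwards and then to the soluble factors.

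**Figure D2:**
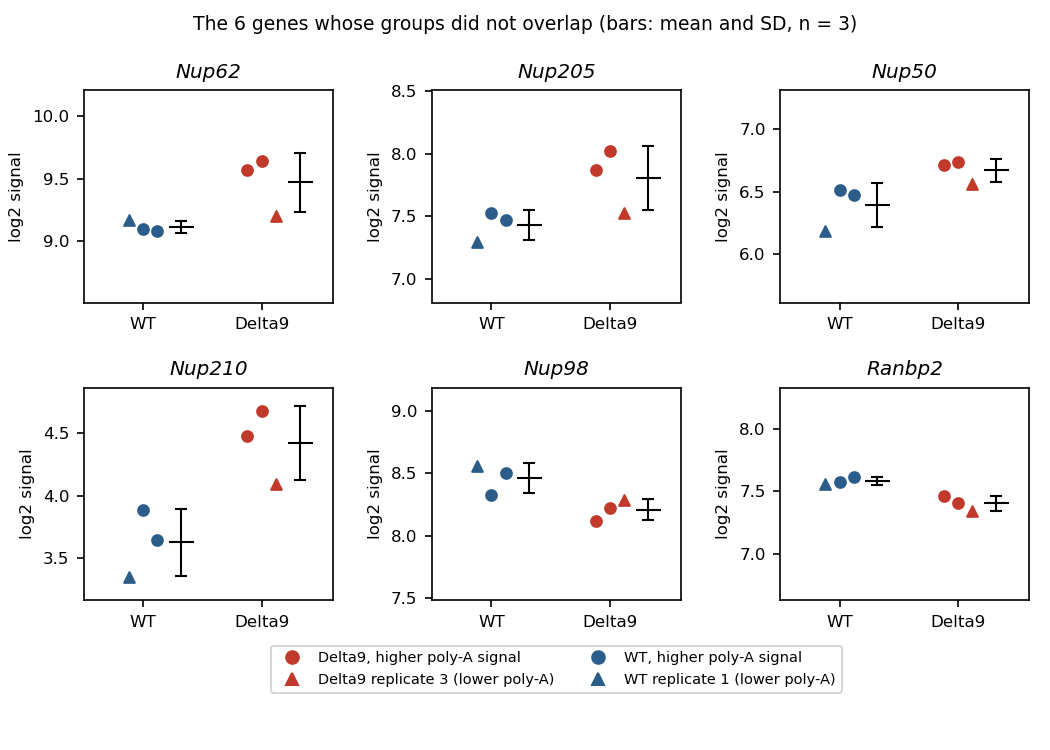
Log2 signal (y axis, the same span in every panel) of the 6 genes whose Delta9 and WT arrays did not overlap; each point is an array, triangles are the lower poly-A arrays, and bars give the mean and SD of 3 arrays. In Nup62 and Nup205, Delta9 replicate 3 lies next to the WT arrays, at 9.20 and 7.52, while Nup210 has the widest gap, between 4.10 and 3.89.

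Among the membrane anchors, which fasten the ring to the pore membrane, Nup210 had the largest difference of the 30. Nup210, a membrane glycoprotein that lines the space between the nuclear membranes around the pore and varies between cell types, read 4.48, 4.68 and 4.10 in Delta9 and 3.35, 3.89 and 3.64 in WT. The lowest Delta9 array was above the highest WT array by 0.21. The means were 4.42 ± 0.30 and 3.63 ± 0.27 (SD, n = 3), a 1.73-fold higher level in Delta9 with a difference of 0.79 (SE 0.20, adjusted p 0.271), which misses the threshold. With the poly-A split as a block the adjusted p was 0.0556. This signal was dim, above that of 42.1% of genes, and the other Nup210 probe set, dimmer still at 1.80 to 1.98, differed by -0.12 with the WT arrays all above the Delta9 arrays. Ndc1, a membrane-spanning nucleoporin needed to insert pores, differed by 0.51 (SE 0.38) on its brightest probe set and by 0.19 on the next. Its Delta9 values of 6.01, 5.74 and 4.66 spread more widely than those of any other gene of the 30, and its WT values were 4.46, 5.21 and 5.20, so the groups overlapped. Aaas, the protein aladin that Ndc1 holds at the pore, differed by 0.30 (SE 0.28). Pom121, a membrane nucleoporin that starts pore assembly, read 8.62, 8.50 and 8.60 in Delta9 and 8.74, 8.67 and 8.49 in WT, a difference of -0.06 (SE 0.12), and its second probe set gave 0.10.

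The outer ring is built from the Y complex, the scaffold that shapes the membrane curve and that also sits at kinetochores in mitosis. None of its 9 genes had separated groups (17.3% of all genes) or an unadjusted limma p under 0.05 (10.6% of all genes). A list of 9 genes is too short to set a count of 0 apart from these shares. Their median difference was 0.05. Nup37, a beta-propeller subunit, differed most of the 9 in size, by 0.21 (SE 0.29). It read 7.20, 7.05 and 6.39 in Delta9 and 6.16, 6.88 and 6.96 in WT. Each group had 1 low array, and the groups overlapped. The core arm proteins Nup85, Nup107, Nup133 and Nup160 differed by -0.14, 0.03, 0.05 and 0.16. The further beta-propeller subunits Nup43, Sec13 and Seh1l differed by 0.18, 0.11 and 0.02; Sec13 also coats secretory vesicles and Seh1l also serves in nutrient signalling at the lysosome. Ahctf1, the protein ELYS that ties the Y complex to chromatin after mitosis, differed by -0.19 (SE 0.16).

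Of the 4 inner ring genes, which encode the scaffold between the membrane and the channel, Nup205 was separated and the other 3 overlapped (17.3% of all genes were separated). Nup205, a large adaptor that binds Nup93, read 7.87, 8.02 and 7.52 in Delta9 and 7.30, 7.52 and 7.47 in WT. Delta9 replicate 3 and WT replicate 2 were equal to 2 decimals, so the groups barely parted. The difference was 0.38 (SE 0.17, adjusted p 0.488), or 1.30-fold. Its second probe set was dim, at 2.89 to 3.81, and differed by -0.17 with overlapping groups, and the mean of both probe sets differed by 0.10. Its paralogue Nup188 differed by -0.09 (SE 0.18), Nup93, which anchors the inner ring to the channel, by 0.01 (SE 0.23), and Nup155, which links the ring to the membrane, by -0.10 (SE 0.17).

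In the central channel, Nup62 gave much the same difference on each of its 4 brighter probe sets. Nup62, the FG nucleoporin that forms the transport channel together with Nup54 and Nup58, read 9.57, 9.64 and 9.20 in Delta9 and 9.17, 9.10 and 9.08 in WT on its brightest probe set. Delta9 replicates 1 and 2 stood clear of WT, while Delta9 replicate 3 exceeded the highest WT array by 0.03. The means were 9.47 ± 0.24 and 9.12 ± 0.05 (SD, n = 3), 1.28-fold higher in Delta9 with a difference of 0.36 (SE 0.15, unadjusted limma p 0.0435, adjusted p 0.457). The 3 other probe sets with a signal over 5 gave 0.42, 0.42 and 0.43, and 3 of these 4 in all were separated. On the remaining one, Delta9 replicate 3 read 7.01, below the 7.06 and 7.07 of WT replicates 2 and 3. A further probe set was dim, at 2.75 to 3.48, and differed by -0.34. Probe sets of the _x_at type, which include the brightest one, can bind more than 1 transcript. Nup54 differed by -0.19 (SE 0.14) on its brightest probe set, also of the _x_at type, but by 0.23 on another with a signal over 5, so its direction depended on the probe set.

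**Figure D3:**
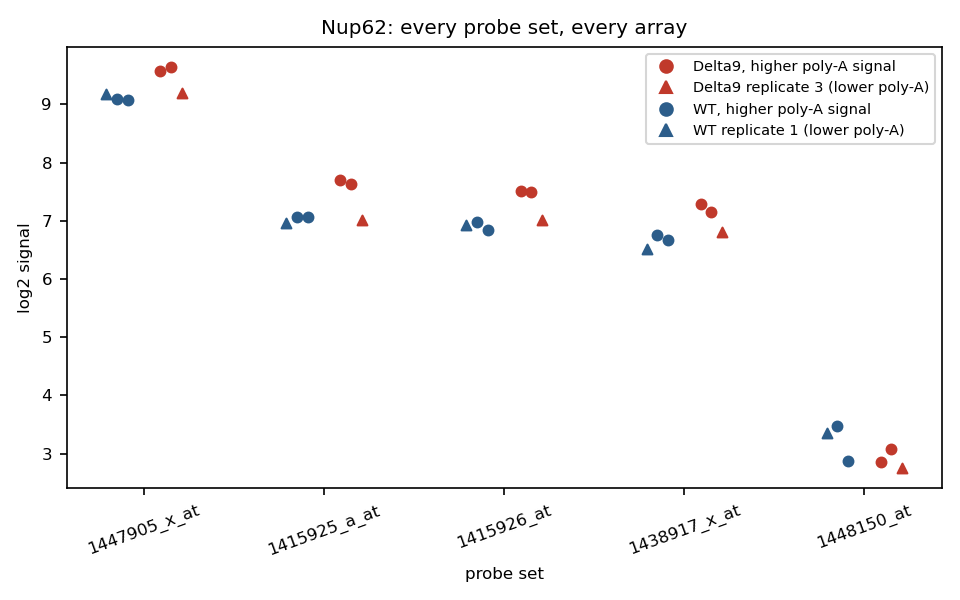
Log2 signal (y axis) of the 5 Nup62 probe sets on every array, WT on the left and Delta9 on the right of each position; triangles are the lower poly-A arrays. On the 4 bright probe sets Delta9 replicates 1 and 2 lie above all WT arrays and Delta9 replicate 3 lies close to them; the dim one, from 2.75 to 3.48, runs the other way.

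On the nuclear basket, the fibrous cage that reaches into the nucleus next to the lamina, both genes read higher on average in Delta9. Nup50, a mobile nucleoporin that helps importin alpha release its cargo, read 6.71, 6.74 and 6.56 in Delta9 and 6.19, 6.51 and 6.47 in WT. Every Delta9 array was above every WT array, by at least 0.05. The difference was 0.28 (SE 0.15, adjusted p 0.552), or 1.21-fold, and the next 2 probe sets gave 0.43 and 0.47, the second of them dim and separated too. Nup153, the FG nucleoporin of the basket that binds lamins, read 6.56, 6.67 and 5.91 in Delta9 and 5.98, 6.37 and 6.35 in WT. Delta9 replicate 3 was the lowest of the 6 arrays and WT replicate 1 the next, and the difference was 0.15 (SE 0.23, adjusted p 0.856). The second Nup153 probe set read 5.26, 5.14 and 5.13 in Delta9 and 5.08, 5.11 and 5.02 in WT. Its groups did not overlap, with a difference of 0.11.

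On the cytoplasmic face, where exported mRNA is stripped of its carriers and Ran-GTP is used up, 3 of 6 genes had a higher and 3 a lower mean in Delta9. Nup98, a mobile FG nucleoporin with a role in mRNA export whose transcript also encodes the Y complex protein Nup96, read 8.12, 8.22 and 8.29 in Delta9 and 8.56, 8.33 and 8.50 in WT. The groups were 0.04 apart, with a difference of -0.25 (SE 0.13, adjusted p 0.534), or 1.19-fold lower in Delta9. Its dimmer probe set differed by 0.03 and overlapped. Ranbp2, the giant filament protein Nup358 with Ran-binding domains and SUMO ligase activity, read 7.46, 7.40 and 7.34 in Delta9 and 7.56, 7.58 and 7.62 in WT. Here the replicates were tight, and the difference was -0.18 (SE 0.12, adjusted p 0.632), while its second probe set differed by 0.03. Rae1, the mRNA export partner of Nup98, differed by 0.25 (SE 0.26). Nup88, a scaffold nucleoporin that binds lamin A, read 7.82, 7.76 and 7.49 in Delta9 and 7.30, 7.56 and 7.83 in WT, a difference of 0.12 (SE 0.18). Its partner Nup214, an FG nucleoporin, differed by 0.03, and Gle1, which activates the helicase of mRNA export, by -0.08.

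Ran and its 2 main receptors had small differences. Ran, the GTPase itself, read 11.63, 11.78 and 11.26 in Delta9 and 11.30, 11.66 and 11.44 in WT, a difference of 0.09 (SE 0.16). Across its 5 probe sets with a signal over 5 the differences ran from -0.05 to 0.17, and 4 of these are of the _x_at type, so signal from related sequences may be included. On the probe set with the difference of 0.17 the Delta9 arrays were all above the WT arrays, and on the other 4 the groups overlapped. Kpnb1, importin beta, read 9.76, 9.87 and 9.44 in Delta9 and 9.53, 9.77 and 10.10 in WT, a difference of -0.11 (SE 0.18). Xpo1, exportin 1, read 7.89, 7.81 and 7.42 in Delta9 and 7.64, 7.64 and 7.57 in WT, a difference of 0.09 (SE 0.16), and 0.32 on its second probe set. The 95% intervals were -0.29 to 0.47 for Ran, -0.55 to 0.32 for Kpnb1 and -0.28 to 0.47 for Xpo1. On the brightest probe set the groups overlapped for each of the 3 genes.

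The promoters of the 4 genes that read higher on every Delta9 array than on any WT array are shown. They were picked by these values, where 7.27% of all genes parted in that direction. The promoters of Nup98 and Ranbp2, which parted with Delta9 lower, are not shown. Each line gives the 250 bases before the RefSeq start (build GRCm38.p6), read along the gene's strand, with motif matches in capitals. Nup62 lies on the plus strand at chr7:44815838-44816087, Nup205 on the plus strand at chr6:35177366-35177615, Nup50 on the plus strand at chr15:84923178-84923427 and Nup210 on the minus strand at chr6:91116827-91117076.
Nup62: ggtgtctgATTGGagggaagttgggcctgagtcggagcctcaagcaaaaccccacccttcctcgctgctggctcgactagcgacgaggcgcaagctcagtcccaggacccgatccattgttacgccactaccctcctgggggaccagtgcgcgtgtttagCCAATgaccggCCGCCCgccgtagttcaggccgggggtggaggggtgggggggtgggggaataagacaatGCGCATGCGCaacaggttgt
Nup205: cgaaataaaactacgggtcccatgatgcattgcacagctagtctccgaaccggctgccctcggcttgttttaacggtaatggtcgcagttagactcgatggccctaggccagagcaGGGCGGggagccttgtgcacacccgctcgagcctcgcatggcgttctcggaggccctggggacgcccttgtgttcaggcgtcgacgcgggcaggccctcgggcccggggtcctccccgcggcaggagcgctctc
Nup50: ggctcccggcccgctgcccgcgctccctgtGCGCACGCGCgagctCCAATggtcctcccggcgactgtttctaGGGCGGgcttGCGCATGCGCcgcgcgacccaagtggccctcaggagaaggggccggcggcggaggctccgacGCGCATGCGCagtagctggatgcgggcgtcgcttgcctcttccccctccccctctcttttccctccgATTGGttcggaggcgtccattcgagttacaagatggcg
Nup210: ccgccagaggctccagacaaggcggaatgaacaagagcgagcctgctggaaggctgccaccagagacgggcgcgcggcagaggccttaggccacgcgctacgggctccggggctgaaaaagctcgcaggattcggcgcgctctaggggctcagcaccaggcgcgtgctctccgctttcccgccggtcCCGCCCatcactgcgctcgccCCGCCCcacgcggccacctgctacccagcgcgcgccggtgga
The capitals mark exact matches, on either strand, to motifs of general and cell cycle promoters. Nup62 held a match to the 10-letter NRF1 motif, a GC-rich palindrome, that began 20 bases before the start, and Nup50 held 3 such matches, at 220, 167 and 105 bases. Both also held 2 CCAAT boxes (CCAAT) and a GC box (GGGCGG). Nup205 had 1 GC box and Nup210 had 2, and neither had any of the other motifs searched.

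Over the 28 listed genes with a promoter in the RefSeq table, Tpr included, the windows were rich in G and C, with a median of 64.0% against 52.4% over all windows. The GC box was found in 18 of 28 genes (64.3%; 35.4% of the 27025 genes of the table, noncoding ones included), the ETS core CCGGAAG in 6 (21.4%; 7.83%) and the NRF1 motif in 4 (14.3%; 4.23%). The CCAAT box was in 11 (39.3%; 37.5%), the E-box CACGTG in 5 (17.9%; 6.86%), the TATA box TATAAA in 3 (10.7%; 14.3%) and TTTGAA, the core of the cell cycle element CHR, in 6 (21.4%; 18.3%). The E2F forms TTTCGCGC and TTTGGCGC were in 0 of 28 (0.300% and 0.485%). In the listed genes' windows different motifs overlapped once, an E-box with a GC box at Nup93, and neighbouring GC boxes overlapped each other at Nup88, Nup93 and Nup155. These are matches of letters and not known sites.

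Most of these genes were low on the same 2 arrays. Delta9 replicate 3 was the lowest Delta9 array for 25 of the 30 genes (83.3%; 43.1% of all genes), and WT replicate 1 the lowest WT array for 21 (70.0%; 45.4%). Both held for 21 genes, against 27.4% of all genes. The mean of the 30 genes, relative to each gene's mean over the 6 arrays, was 0.18 and 0.19 on Delta9 replicates 1 and 2 and -0.23 on Delta9 replicate 3. In WT it was -0.22 on replicate 1 and 0.03 and 0.06 on replicates 2 and 3. The low pair therefore held 1 array of each group, and these are the lower poly-A arrays.

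**Figure D4:**
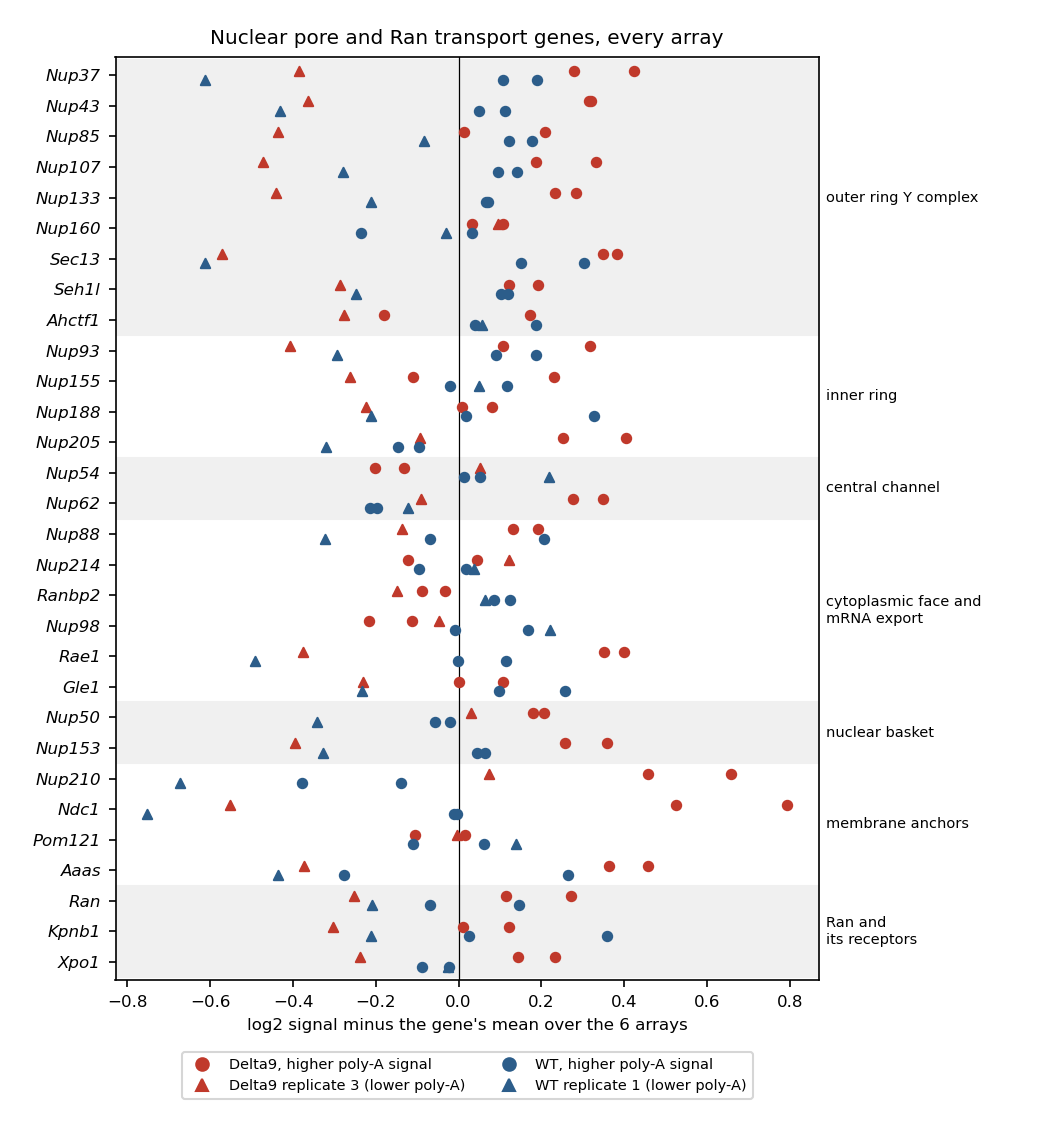
Log2 signal of each of the 30 genes on every array, relative to the gene's own mean over the 6 arrays (x axis), with Delta9 in red and WT in blue; triangles are the lower poly-A arrays. The triangles sit at the left for most genes, as for Sec13, Nup37 and Rae1, and not for Nup54, Nup98, Nup214 and Pom121.

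The genes differed in how far they followed this pattern. The shift of the lower poly-A arrays against the others, averaged over both groups, was -0.98 for Ndc1, -0.89 for Sec13, -0.75 for Nup37 and -0.65 for Rae1, with a median of -0.35 over the 30 genes and -0.04 over all genes. In the Y complex the median was -0.49, and 8 of its 9 genes were shifted down in both groups, with Nup160 as the exception at 0.05. Nup54 (0.20), Nup98 (0.13), Nup214 (0.12) and Pom121 (0.10) were shifted up in both groups, and Ranbp2 hardly shifted, at -0.06.

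Some other measures set the same 2 arrays apart and others did not. The mean of 20 cell cycle genes, relative to the 6-array mean, was -0.33 on Delta9 replicate 3 and -0.36 on WT replicate 1, against 0.30 and 0.48 on the other Delta9 arrays and 0.07 and -0.15 on the other WT arrays. By group, 18 of these 20 genes had a higher and 2 a lower mean in Delta9, with a median difference of 0.27. In limma 0 of them passed the adjusted threshold and 2 had an unadjusted p under 0.05 (10.0%; 10.6% of all genes). The mean of the 13 macrophage markers was 0.91 and 0.42 on the lower poly-A arrays, 0.46 and 0.30 on the other Delta9 arrays and -0.28 and -1.81 on the other WT arrays. For Gapdh, the signal at the 3' end minus that at the 5' end, which grows as RNA is degraded, was 0.57 on both lower poly-A arrays, 0.25 and 0.23 on the other Delta9 arrays and 0.49 and 0.51 on the other WT arrays. For actin the same measure was 0.84 and 0.86 on the lower poly-A arrays, inside the range of 0.51 to 1.41 of the others. The part of these measures in the values of the pore genes was not tested.

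**Figure D5:**
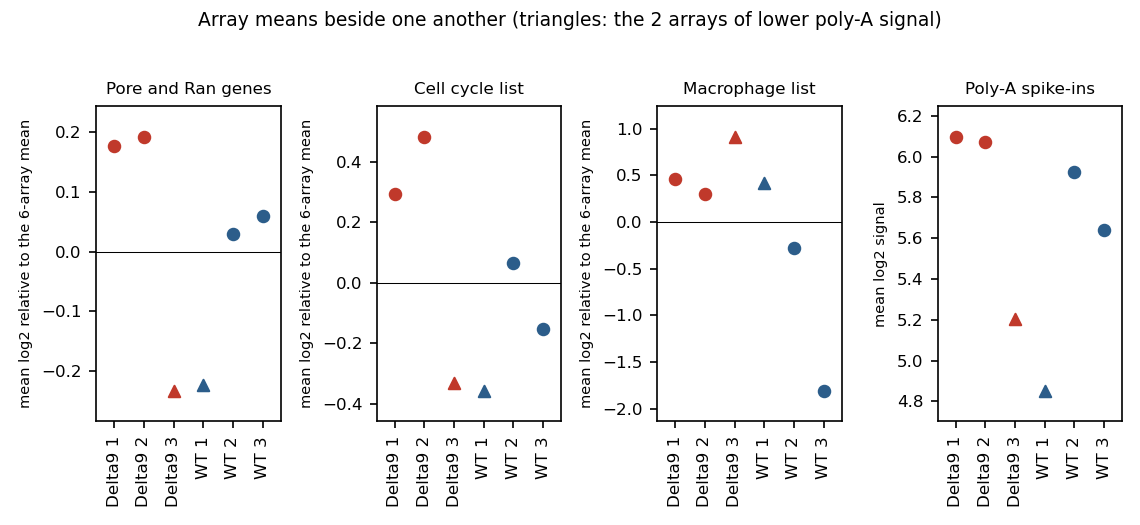
Mean over genes on each of the 6 arrays, for the 30 nuclear pore and Ran transport genes, the cell cycle list and the macrophage list (log2 relative to the 6-array mean) and for the poly-A spike-ins (log2 signal); triangles are the lower poly-A arrays. The pore genes read -0.23 and -0.22 on these 2 arrays, where the cell cycle list reads -0.33 and -0.36.

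Comparing Delta9 with WT inside each part of the arrays brought none of the 30 genes past the threshold. With the poly-A split as a block, 0 of 30 genes passed in limma (all genes 0.819%, with 0.258% higher and 0.561% lower), and 6 had an unadjusted p under 0.05 (18.1% of all genes). These were Nup210, Nup205, Ndc1, Nup62 and Nup50 with a higher mean in Delta9 (5 of 30; 9.01% of all genes) and Nup98 with a lower mean (1 of 30; 9.04%). Their adjusted p were 0.0556, 0.137, 0.156, 0.187, 0.222 and 0.230. The 95% intervals then lay between -0.5 and 0.5 for 22 of the 30 genes, and for 11399 of all 18193 genes. Within the 4 arrays of higher poly-A signal, 2 of each group, the Delta9 arrays were above the WT arrays for 15 genes (50.0%; 22.9% of all genes) and below them for 3 (10.0%; 26.1%). The median difference there was 0.14 (all genes -0.02), and 0 of 30 passed in limma, with 5 at an unadjusted p under 0.05 (16.7%; 16.0% of all genes). Between the lower poly-A arrays, which allow no test, it was -0.03. Nup210 differed by 0.82 in the first comparison and 0.75 in the second, Nup50 by 0.23 and 0.37, and Nup205 by 0.45 and 0.23, whereas Nup62 differed by 0.52 and 0.03. On the 4 arrays of higher poly-A signal, the Gapdh measure and the cell cycle and macrophage means parted by group too. There they cannot be told apart from the genotype.

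The other genes of nucleocytoplasmic transport gave a like result. Of 48 genes listed (importin alpha adaptors, further importers and exportins, Ran regulators, mRNA export factors, other nucleoporins and SUMO enzymes of the pore), 45 were measured and 0 passed in limma; 1 had a higher and 1 a lower mean at an unadjusted p under 0.05 (all genes 4.54% and 6.06%). The groups did not overlap for 7 of the 45 (15.6%; 17.3% of all genes). Their median difference was 0.09, with 29 above and 16 below 0. The 5 Ran cycle regulators were all above 0, from 0.10 to 0.33. Rcc1, the exchange factor that charges Ran with GTP on chromatin, read 6.21, 6.06 and 5.32 in Delta9 and 5.08, 5.67 and 5.86 in WT, a difference of 0.33 (SE 0.30). Rangap1, which makes Ran hydrolyse its GTP outside the nucleus, read 7.02, 7.13 and 6.43 in Delta9 and 6.29, 6.84 and 7.04 in WT, a difference of 0.14 (SE 0.26). In both genes Delta9 replicate 3 and WT replicate 1 were the low arrays and the groups overlapped. Ranbp1, the cytoplasmic helper of Rangap1, read 10.21, 10.43 and 9.62 in Delta9 and 9.70, 9.98 and 9.69 in WT, a difference of 0.29 (SE 0.22).

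All 6 importin alpha genes, the adaptors that read nuclear localisation signals, also had a higher mean in Delta9, from 0.06 to 0.35. The other lists were mixed: 6 of 12 further importers, 3 of 6 exportins, 6 of 10 mRNA export genes, 1 of 4 other nucleoporins and both SUMO proteases had a higher mean in Delta9. Kpna1 read 7.49, 7.58 and 7.13 in Delta9 and 6.95, 7.04 and 7.17 in WT, a difference of 0.35 (SE 0.16, adjusted p 0.505). WT replicate 3 was above Delta9 replicate 3, so the groups overlapped. Kpna7 was dim and separated, at 3.51, 3.82 and 3.51 in Delta9 and 3.17, 3.37 and 3.40 in WT, with 0.30 (SE 0.13). Kpna2, an importin alpha tied to dividing cells, read 9.43, 9.52 and 8.53 in Delta9 and 8.46, 9.35 and 9.18 in WT; it differed by 0.16 (SE 0.33) and was shifted by -0.87 on the lower poly-A arrays. Cse1l, which returns importin alpha to the cytoplasm, read 7.64, 7.87 and 6.78 in Delta9 and 7.01, 7.54 and 7.37 in WT, differed by 0.12 (SE 0.30) and was shifted by -0.71. Both overlapped between the groups. Senp1, a SUMO protease found at the pore, read 5.54, 5.21 and 5.46 in Delta9 and 5.19, 5.04 and 4.86 in WT. The groups did not overlap, with a difference of 0.37 (SE 0.16, unadjusted limma p 0.0494, adjusted p 0.470). The 3 genes of lowest p among those with a lower mean were Ranbp17 with -0.43 (SE 0.15), Ranbp6 with -0.15 (SE 0.08), both importin beta family members and both dim, and Ddx39b, an mRNA export helicase, with -0.20 (SE 0.11). Ranbp17 read 2.55, 2.90 and 2.45 in Delta9 and 2.86, 3.08 and 3.25 in WT, and its groups overlapped. Ranbp6 was separated, at 3.00, 3.00 and 3.06 in Delta9 and 3.17, 3.15 and 3.17 in WT. Ddx39b was separated too, at 9.61, 9.87 and 9.66 in Delta9 and 9.89, 9.94 and 9.88 in WT.

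The probe sets of a gene did not always give one answer. The 30 genes had 90 probe sets, 54 of them with a mean signal over 5. Of the genes with several such probe sets, 9 had differences of a single sign and 7 had both signs, namely Nup54, Nup85, Nup98, Pom121, Ran, Ranbp2 and Seh1l. Over all genes, 17.3% were separated on the probe set of highest mean, and the share over all dim probe sets is not given. Of the 36 dimmer probe sets, 3 were separated with Delta9 higher, those of Nup188, Nup50 and the brighter of Nup210. Another 3 were separated with Delta9 lower, those of Nup133 (-0.33), Gle1 (-0.24) and the other of Nup210. That of Nup188 read 3.19, 3.12 and 3.15 in Delta9 and 2.67, 2.68 and 2.88 in WT, whereas the bright one read 6.84, 6.91 and 6.60 against 6.62, 6.85 and 7.16. It was picked out after its values were seen. When all probe sets were tested, 0 genes had one past the adjusted threshold in limma (lowest adjusted p 0.320).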

How the data were processed

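RNA of 3 Delta9 and 3 WT samples was measured on 1 Affymetrix array each. The authors deposited log2 signals of 45101 probe sets. The log2 base was inferred from their range. How the probes were summarised, background-corrected and normalized is not stated in the labels; array medians lay between 3.36 and 3.43. Probe sets annotated to 1 symbol by the platform's table (34945) were kept, and each gene took the probe set of highest mean over the 6 arrays, with no filter. Delta9 was compared with WT over all 18193 genes in limma 3.58.1 under R 4.3.3 (lmFit, eBayes with trend), with Benjamini-Hochberg adjustment and a threshold of 0.05. SE is the moderated standard error. The model was run on simulated data whose arrays varied independently, without the shift that Delta9 replicate 3 and WT replicate 1 share. That run therefore does not test how the model handles such a shift. Promoters and gene names came from RefSeq (GRCm38.p6); 28 of 32 listed genes had a promoter there. The array values carry no genome build. Precision is limited by having 3 arrays in a group.

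Every gene of the list is given its difference. Full array values are given for genes at an unadjusted p under 0.05, the gene of largest difference in each of 7 parts of the pore, and Nup153, Nup50, Nup88, Nup98, Nup62, Ranbp2, Nup210, Pom121, Ran, Kpnb1 and Xpo1; of the other transport genes, the 3 of lowest p in each direction and Rcc1, Rangap1, Ranbp1, Cse1l and Kpna2. Ndc1 and values of further probe sets were added after their values were seen. The genes and lists were chosen with earlier results of these data known. Alternatives were quantile normalization, median centring, no dim genes, averaged probe sets, no _x_at or _s_at probe sets, other variance models, array weights, the replicate number or the poly-A split as a block, the 4 arrays of higher poly-A signal, another threshold and leaving out each sample.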

Additional observations from a re-analysis of the deposited data

How the results depend on the processing

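The count of 0 pore genes past the threshold held under every alternative run, as did the count of 0 among the other transport genes. The pore gene count also held with all probe sets tested, with or without the poly-A block, a test chosen after seeing the data. The threshold of 0.1 was applied to the main fit only. In other limma fits, adjusted p under 0.1 included 0.0556 for Nup210 with the poly-A block and 0.0883 for Nup62 with array weights. The count over all genes went from 11 to 48 at a threshold of 0.1, 139 with array weights, 149 with the poly-A split as a block, 61 within the 4 arrays of higher poly-A signal, and 1 to 81 with single samples left out (81 without Delta9 replicate 3, 1 to 5 without each other sample). Pore genes at an unadjusted p under 0.05 went from 2 to 1 without _x_at and _s_at probe sets, 5 with array weights, 6 with the poly-A block, 5 within the 4 arrays, and 1 to 6 with single samples left out; over all genes the shares were 10.4%, 20%, 18.1%, 16.0% and 7.69% to 13.7%, against 10.6%. Separated genes went from 6 to 3 with averaged probe sets, 18 within the 4 arrays (2 against 2), and 6 to 18 with single samples left out, the 18 without Delta9 replicate 3; over all genes 17%, 49.1% and 24.5% to 34.6% were separated, against 17.3%. The median difference of the pore genes ran from -0.03 without WT replicate 1 (all genes -0.04) to 0.23 without Delta9 replicate 3 (all genes 0.0007). No named gene changed sign with both values above their own SE; 16 of 25, Lmna included, kept their sign throughout.

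With the replicate number as a replicate block, 0 genes passed over all genes, and 1 pore gene had an unadjusted p under 0.05 (7.41% of all genes). The labels do not say that these numbers pair the samples. Deviations of same-numbered samples from their group means correlated at -0.40, 0.17 and -0.43. Delta9 replicate 3 correlated best with WT replicate 1, at 0.59. Each deviation is from a mean of 3 arrays, so these values cannot settle whether the samples were paired. Signal over background was not given, so how far the dim probe sets, such as those of Nup210, exceed it is unknown.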
